A study of Mus musculus with 23 samples.

Results

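The cortex of adult mice carrying a glycine 34 to arginine substitution of histone H3.3 (G34R, 3 animals) was compared directly with that of mice carrying a glycine 34 to tryptophan substitution (G34W, 2 animals). These 5 animals, chosen by their genotype and age labels, are all the G34R and G34W animals at 10 weeks among 22 animals in the series. The labels give both genotypes as heterozygous for an allele of H3f3a, so every mutant also kept 1 unsubstituted copy. Total RNA of pulverised cortex, depleted of ribosomal RNA, was sequenced. The 10-week wild-type mice (WT, 6 animals) and heterozygous G34V mice, with valine at the same residue (3 animals), entered the same model, where they supplied part of the estimate of the spread, and their levels are given as a reference. No strain, driver or litter is given in the sources used here. All 14 of these animals were labelled male except G34W replicate 2, whose sex label is female although its title has the prefix of the males. That animal had 150 CPM (counts relative to library size) of Xist, the RNA that silences 1 X chromosome in females, and 0.0475 CPM of the Y-linked gene Ddx3y, where the other 13 had at most 0.266 CPM and at least 66 CPM. It is taken as female, so sex differs between the 2 G34W animals.

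H3.3 is the histone H3 variant that cells deposit outside DNA replication, which makes it the main H3 of neurons and other cells that no longer divide. Glycine 34 lies on its amino-terminal tail close to lysine 36, whose methylation by SETD2 and the NSD enzymes is read by the DNA methyltransferase DNMT3A. Microglia, the macrophages of the brain parenchyma, and astrocytes change their expression when neurons are lost or damaged: microglia raise lysosomal, phagocytic and complement genes, and astrocytes raise the intermediate filaments GFAP and vimentin. The series names neurodegeneration as its subject, and the comparison asks how far 2 substitutions of a single residue leave the cortex in different states.

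Total counts were 78250476, 35198575 and 40421868 in G34R replicates 1 to 3 and 32283004 and 41352024 in G34W replicates 1 and 2. G34W replicate 1 stood apart from the other 13 animals. Small structured RNAs took 33.43% of its counts, against 16.32% to 23.05% elsewhere, and its score on the first principal component was 59.65, with the next highest at 22.25 in G34W replicate 2. The 13 protein-coding genes of the mitochondrial genome took 0.8855% to 0.9838% of counts in G34R and 1.326% to 1.356% in G34W. The animal numbers in the titles of the G34R mice fall in other runs than those of the G34W mice, each run with WT animals of its own. The run and the genotype can be separated only through those WT animals. Excitatory cortical neuron markers were present in every animal, at a summed level of 936 to 998 CPM (a gene's count relative to its library's effective size, on 1 scale over the 14 animals) in G34R and 785 and 876 CPM in G34W over 5 genes. Lymphocyte and granulocyte markers were close to 0 in both groups. In bulk tissue, fewer cells of a type and less RNA per cell cannot be told apart.

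**Figure D1:**
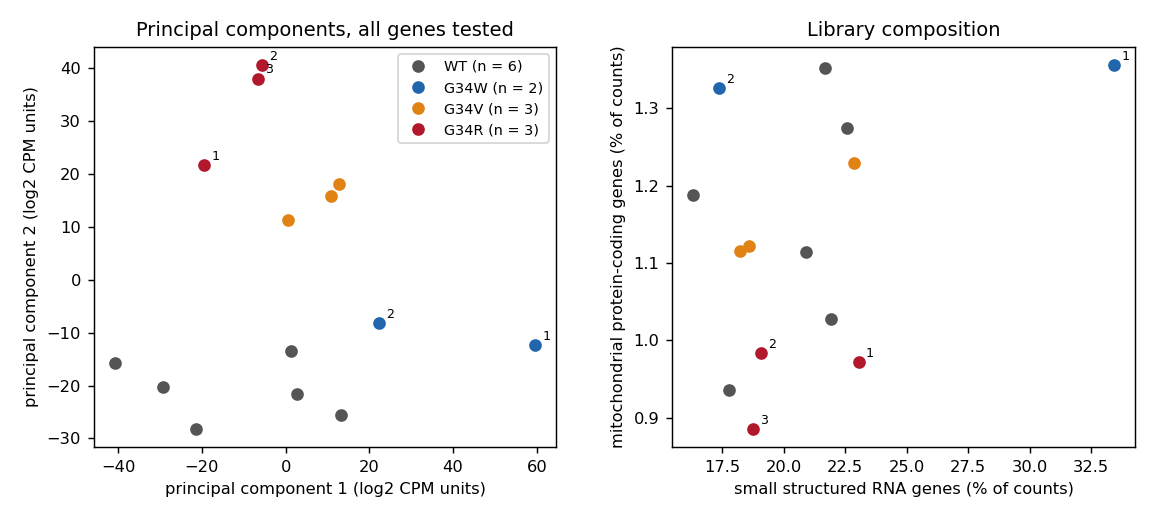
Principal component scores of the 14 animals at 10 weeks over all tested genes (left) and the percentage of counts in mitochondrial protein-coding genes against that in small structured RNA genes (right). Each point is 1 animal coloured by genotype, numbers mark G34R and G34W replicates, and G34W replicate 1 lies alone at 33.43% small structured RNA.

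The edited gene was measured first. H3f3a (chromosome 1, 180800832 to 180813943, GRCm38) stood at 40.6, 43.2 and 39.4 CPM in the G34R animals and 43.4 and 36.7 CPM in the G34W animals, beside 39.8 to 47.3 (median 42.3) CPM in WT. The ranges of the groups overlapped, and the log2 fold change of G34R over G34W was 0.04 with an SE of 0.0953 (adjusted p = 0.877, edgeR). A gene-level count cannot tell the edited allele from the other, so this level does not check the genotype labels. The DNA methyltransferase gene Dnmt3a was at 69.1, 72.3 and 72.6 CPM in G34R and 70.1 and 83.5 CPM in G34W, with overlapping ranges and a log2 fold change of -0.11 with an SE of 0.0997 (adjusted p = 0.605, edgeR). None of 15 tested genes of DNA methylation and its readers and none of 22 genes of H3.3 and H3K36 or H3K27 methylation passed edgeR's test. Of these, 2 and 3 had an unadjusted p under 0.05, and DESeq2 called 1 and 2. Over all 21274 genes tested with edgeR, 3871 had an unadjusted p under 0.05. DESeq2 called 1093 of the 30042 genes in its fit. Such counts for a list, here and below, are to be read beside these.

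Across the transcriptome, genes of microglia, lysosomes, complement and reactive astrocytes were among those higher in G34R. Of 21274 genes tested with edgeR's quasi-likelihood test and Benjamini-Hochberg adjustment, 400 (1.88%) had an adjusted p under 0.05. Of these, 201 (0.945%) were higher and 199 (0.935%) lower in G34R, and 102 differed at least 2-fold, 62 of them higher. All 400 had ranges that did not overlap between the 2 groups, as did 7065 (33.2%) of all tested genes. When only the 5 animals compared were fitted, 278 genes were called, and 170 of these were among the 400. Against the same WT animals the fit called 1193 genes (5.61%) in G34R and 343 (1.61%) in G34W. The 2 comparisons with WT share their controls, and they rest on 3 G34R animals but only 2 G34W animals. Counts of calls against WT, here and below, therefore do not compare the sizes of the effects. The number of calls between G34R and G34W fell to 159, 118 and 167 without G34R replicates 1, 2 and 3 in turn and to 209 without G34W replicate 1, and it was 508 without G34W replicate 2. In all 5 of these omissions 60 genes kept their call, 33 higher and 27 lower.

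With the runs of animal numbers as a block, which compares each genotype with the WT animals of its own runs, 19 genes passed. Of these 17 were among the 400, and they included Gfap, Vim, Serpina3n, Ctss, Laptm5, Cd68, Lyz2, C1qc, C4b, Ly86, Mpeg1, Tmem176b, Gfm2, Cd63-ps and Lgi2. Every other gene described as higher or lower here therefore lost its call under this block. The block adds terms for the runs, which leaves fewer residual degrees of freedom, so a lost call need not mean a smaller difference. In the block the log2 fold changes of Itgax (2.77) and Cdkl1 (-1.24) lay further from 0 than in the main fit. Those of Cst7 (1.22) and Epas1 (-0.61) lay closer to it. Across all 21 alternatives at the same threshold, 9 genes kept their call and direction, 8 of them higher in G34R. Among these 9 were Gfap, Serpina3n, Ctss, Laptm5, Cd68, C1qc and Lyz2, all higher, and Lgi2, which was lower.

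**Figure D2:**
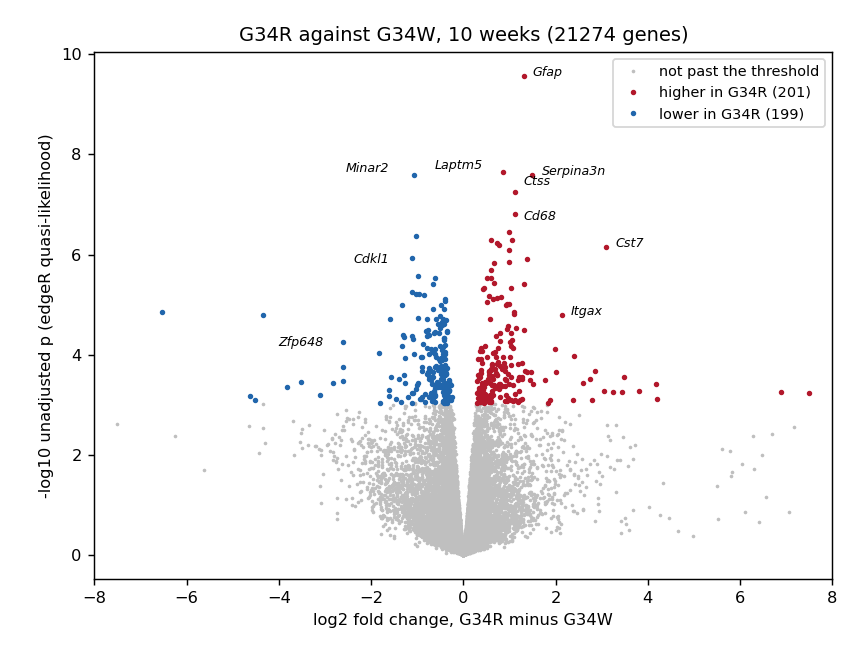
Log2 fold change of G34R minus G34W (horizontal) against the unadjusted p of edgeR's quasi-likelihood test on a -log10 scale (vertical) for 21274 genes. Coloured points passed an adjusted p under 0.05, 201 higher and 199 lower in G34R, and Gfap lies highest.

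The levels of the groups that were not compared place these genes. Of the 201 genes higher in G34R, the WT mean lay between the means of G34W and G34R for 116, on the far side of G34W for 73 and above G34R for 12. The G34V mean lay between them for 193 of the 201. Of the 199 genes lower in G34R, WT lay between for 151, above G34W for 39 and below G34R for 9, and G34V lay between for 177. Among all 10442 tested genes with a log2 fold change above 0, WT lay between for 4182 and G34V for 4441. Among all 10832 with a log2 fold change below 0, WT lay between for 4745 and G34V for 4868. The calls were made on the means of G34R and G34W, which sets them apart from those of the other groups, so these counts are a description.

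Reactive astrocyte genes included Gfap and others that were higher in G34R. Of 24 tested members, 6 were higher, 0 lower and 18 did not pass the test, with a median log2 fold change of 0.75 beside -0.00487 over all tested genes. The log2 fold change was above 0 for 21 members and below 0 for 3. At an unadjusted p under 0.05, 14 were higher and 1 lower. Gfap (chromosome 11, 102887336 to 102900912), the astrocyte intermediate filament, measured 442, 436 and 409.5 CPM in the 3 G34R animals and 165 and 181 CPM in the 2 G34W animals. WT animals lay at 107 to 136 (median 122) CPM and G34V animals at 205, 210.1 and 238 CPM, so no 2 genotypes overlapped. The log2 fold change was 1.31 with an SE of 0.101 (adjusted p = 5.71e-06, edgeR), with group means of 429 ± 17.3 CPM (SD, n = 3) and 173 ± 10.8 CPM (SD, n = 2). Against WT the log2 fold change was 1.82 in G34R (SE 0.0722) and 0.51 in G34W (SE 0.0848).

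Serpina3n (chromosome 12, 104406729 to 104414329), a secreted serine protease inhibitor of reactive astrocytes, had 28.5, 26.6 and 25.9 CPM in G34R and 8.36 and 10.7 CPM in G34W. The WT range was 9.06 to 12.3 (median 11.4) CPM, so the G34W animals lay within or below it while all 3 G34R animals lay above. The difference between the substitutions was 1.5 with an SE of 0.156 (adjusted p = 0.00014, edgeR) on the log2 scale. Vim, which encodes vimentin, the filament that partners GFAP, was at 38.6, 35.5 and 32.1 CPM against 19.4 and 20.9 CPM. Its log2 fold change was 0.81 with an SE of 0.128 (adjusted p = 0.00421, edgeR), and both G34W animals lay below the WT range of 22.4 to 28 (median 24.6) CPM. C4b, a complement component expressed by reactive astrocytes, measured 109, 103 and 101 CPM in G34R and 46.3 and 46 CPM in G34W, and its log2 fold change of 1.18 with an SE of 0.235 (adjusted p = 0.03, edgeR) lost its call whichever animal was left out (edgeR adjusted p 0.0706 to 0.124). Reads of C4b may be shared with its near-identical copy C4a. The other called members were the galactosyltransferase gene Ggta1 (log2 fold change 0.91), whose call ended whichever of the 5 animals was left out (edgeR adjusted p 0.0589 to 0.083), and the pentraxin gene Ptx3. Ptx3 had few counts in WT, at 0.11 to 0.463 (median 0.206) CPM, and its own call was not followed through the omissions. The list had 3, 3 and 4 members called without G34R replicates 1, 2 and 3 in turn, 3 without either G34W animal, and 4 in the block.

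Further astrocyte genes were named after their values were seen. Slc14a1, the urea transporter gene, had 17.7, 18.4 and 20.1 CPM in G34R and 9.05 and 9.07 CPM in G34W, the latter within the WT range of 7.6 to 10.1 (median 8.42) CPM. On the log2 scale G34R minus G34W was 1.05 with an SE of 0.135 (adjusted p = 0.00111, edgeR). Clu, which encodes the secreted chaperone clusterin, had 812, 790.5 and 779 CPM against 473 and 569.8 CPM and a log2 fold change of 0.61 with an SE of 0.0784 (adjusted p = 0.00111, edgeR). Chil1, the gene of the secreted glycoprotein YKL-40, had 11.4, 9.59 and 12.3 CPM against 5.56 and 6.17 CPM, a difference of 0.92 with an SE of 0.149 (adjusted p = 0.00478, edgeR). All 3 calls stood whichever of the 5 animals was left out. Homeostatic astrocyte genes did not move in 1 direction: of 20 tested, 2 were higher and 2 lower, with a median of -0.04. The bicarbonate cotransporter gene Slc4a4 was lower in G34R, at 152, 158 and 143 CPM against 210.5 and 229 CPM, with a log2 fold change of -0.54 with an SE of 0.0948 (adjusted p = 0.00842, edgeR). It was the G34W animals that lay above the WT range of 149 to 193 (median 159) CPM. Slc1a2, the main glutamate transporter gene of astrocytes, measured 2048, 2141 and 2088 CPM in G34R and 2523 and 3414 CPM in G34W. Its log2 fold change of -0.50 with an SE of 0.103 (adjusted p = 0.0203, edgeR) held only without G34W replicate 1 (edgeR adjusted p = 0.00303) and reached an adjusted p of 0.142 without G34W replicate 2. The gap-junction gene Gja1 (0.35) and the lactadherin gene Mfge8 (0.40) were higher, and without G34W replicate 1 their edgeR adjusted p was 0.211 and 0.139. Without G34R replicates 1 and 3 it was 0.11 and 0.086 for Gja1 and 0.071 and 0.0555 for Mfge8, and without G34R replicate 2 it was 0.0549 for Gja1.

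Microglia switch on a set of genes around damaged tissue. Of 22 tested genes of this disease-associated state, 12 were higher and 0 lower in G34R, with a median log2 fold change of 0.95. Their medians against WT were 1.34 in G34R and 0.50 in G34W. The list had 5, 6 and 6 without G34R replicates 1, 2 and 3 in turn, and 8 and 6 without G34W replicates 1 and 2, 5 with limma-voom, and 1 in the block, where its median was 0.89. Cst7 (chromosome 2, 150570415 to 150578944), the gene of cystatin F, which restrains lysosomal cysteine proteases, was at 4.89, 3.97 and 3.78 CPM in G34R and 0.691 and 0.333 CPM in G34W. In WT it was at most 0.0885 CPM, and 1 of the 6 animals had no count. The G34R to G34W log2 fold change of 3.10 with an SE of 0.41 (adjusted p = 0.00119, edgeR) was 1.22 in the block (edgeR adjusted p = 0.904). Itgax (chromosome 7, 128129547 to 128150657), which encodes the integrin CD11c, had 4.91, 4.72 and 4.21 CPM in G34R and 1.38 and 0.76 CPM in G34W, with WT at 0.125 to 0.385 (median 0.187) CPM. Both substitutions lay above WT, and between them the log2 fold change was 2.14 with an SE of 0.362 (adjusted p = 0.00668, edgeR), with an adjusted p of 0.0504 without G34W replicate 2.

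Cd68 (chromosome 11, 69664213 to 69666153), a lysosomal glycoprotein of macrophages, showed the same order with little spread within groups. Its levels were 17.2, 14.8 and 16 CPM in G34R, 10.9, 8.24 and 9.8 CPM in G34V, 7.89 and 6.98 CPM in G34W and 4.35 to 5.11 (median 4.79) CPM in WT, and the ranges of G34R and G34W lay far apart. Between the genotypes the log2 change was 1.11 with an SE of 0.132 (adjusted p = 0.000559, edgeR). Cd9, a tetraspanin gene, was at 58.8, 63.8 and 52.8 CPM against 33.4 and 25.9 CPM, with 1 of the G34W animals below the WT range of 31.5 to 40 (median 33.9) CPM, and its log2 fold change was 0.98 with an SE of 0.128 (adjusted p = 0.00126, edgeR). Apoe, the main lipoprotein gene of the brain, had 1279, 1153 and 1174 CPM in G34R and 868 and 899.9 CPM in G34W. The fitted log2 difference was 0.44 with an SE of 0.0678 (adjusted p = 0.0036, edgeR), and both G34W animals lay below the WT range of 912 to 1020 (median 970) CPM. Cd68, Cd9 and Apoe were called whichever animal was left out.

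Other members were called with less margin. The beta-glucan receptor gene Clec7a had 8.82, 7.29 and 5.59 CPM against 2.76 and 1.28 CPM, with WT at 0.133 to 0.482 (median 0.321) CPM. That log2 fold change of 1.87 with an SE of 0.447 (adjusted p = 0.0471, edgeR) ended as a call whichever animal was left out (edgeR adjusted p 0.0574 to 0.182). Trem2, the lipid receptor gene through which microglia enter this state, had 26.7, 24.3 and 20.4 CPM in G34R and 15.7 and 9.76 CPM in G34W. The change of 0.92 with an SE of 0.213 (adjusted p = 0.0434, edgeR) held only without G34W replicate 1 (0.0238), and the adjusted p was 0.113, 0.099 and 0.058 without G34R replicates 1, 2 and 3 and 0.176 without G34W replicate 2. Tyrobp, the signalling adaptor of TREM2, measured 27.6, 23 and 21.7 CPM and 18.6 and 11.3 CPM. Its log2 fold change of 0.70 did not pass the test, with an SE of 0.194 (adjusted p = 0.0767, edgeR). The chemokine gene Ccl3 had 2, 0.918 and 1.43 CPM against 0.218 and 0.261 CPM and a log2 fold change of 2.59 with an SE of 0.585 (adjusted p = 0.033, edgeR), which held only without G34R replicate 2 (0.0471) and ran to 0.119 without the others. Among 18 chemokine and cytokine genes 2 were higher, Ccl3 and Cxcl16 (0.94), and the edgeR adjusted p of Cxcl16 was 0.0566 to 0.139 with each animal left out.

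Genes of resting, homeostatic microglia differed less. Of 18 tested members 4 were higher and 0 lower, and the median was 0.33. The fractalkine receptor gene Cx3cr1 had 71.5, 70.6 and 61.7 CPM against 48.8 and 46.3 CPM, a log2 fold change of 0.52 with an SE of 0.104 (adjusted p = 0.0188, edgeR) that passed only without G34R replicate 3 (0.0229) among the 5 omissions (up to 0.0713). Csf1r, the growth factor receptor gene that microglia need to survive, had 146, 130.1 and 137 CPM against 114 and 109.6 CPM. That log2 fold change of 0.30 with an SE of 0.0756 (adjusted p = 0.0498, edgeR) lay at the threshold and ended as a call with any animal left out (edgeR adjusted p 0.0704 to 0.14). The purinergic receptor gene P2ry12 was at 32.6, 36.1 and 32.2 CPM and 29.7 and 25.5 CPM, and Tmem119 at 26.1, 21.8 and 23.2 CPM and 19.9 and 18.4 CPM, without overlap in either case. Neither passed the test, with log2 fold changes of 0.29 and 0.31 and edgeR adjusted p of 0.114 and 0.192.

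**Figure D3:**
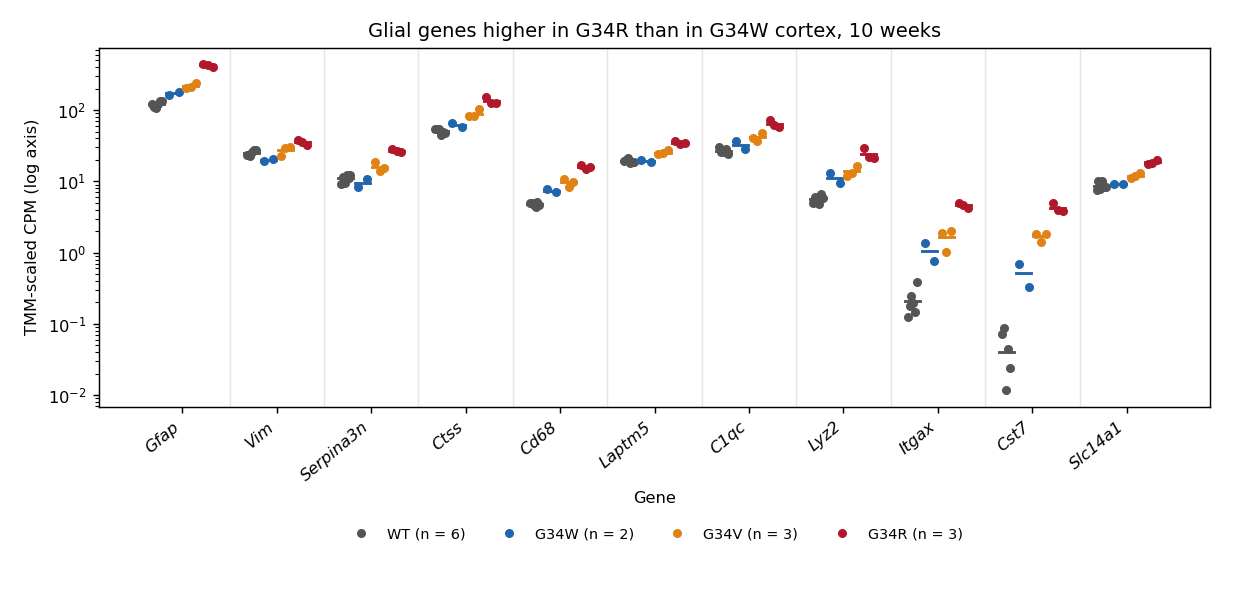
TMM-scaled CPM on a log axis for 11 glial genes called higher in G34R. Points are animals, bars are group means, and the 3 G34R animals lie above both G34W animals for each gene. For Cst7, 1 WT animal with no count is not drawn.

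Of 22 tested lysosomal and phagocytic genes, 13 were higher in G34R and 0 lower, with a median of 0.44, and the medians against WT were 0.49 in G34R and 0.04 in G34W. The number called was 9, 10 and 10 without G34R replicates 1, 2 and 3 in turn, and 11 and 9 without G34W replicates 1 and 2, 8 with limma-voom and 4 in the block. Ctss (chromosome 3, 95526786 to 95556403), the cathepsin of microglia that cleaves antigens and matrix, had 152, 125 and 126 CPM in G34R and 66.7 and 57.7 CPM in G34W. WT animals were at 45.3 to 55 (median 51.5) CPM, below both substitutions. The log2 fold change was 1.11 with an SE of 0.119 (adjusted p = 0.000241, edgeR). Laptm5 (chromosome 4, 130913125 to 130936141), a lysosomal membrane protein of blood-derived lineages, was at 37.4, 33 and 34.5 CPM against 19.9 and 18.6 CPM, and the G34W animals lay inside the WT range of 18.2 to 21.1 (median 19) CPM. Its difference was 0.86 with an SE of 0.0891 (adjusted p = 0.00014, edgeR). Ctsz, a carboxypeptidase, had 53.5, 46.1 and 48.1 CPM against 30.9 and 26.9 CPM and a log2 fold change of 0.77 with an SE of 0.101 (adjusted p = 0.00114, edgeR), and Ctsd, the aspartic cathepsin, had 521, 484 and 464 CPM against 366 and 301 CPM and 0.55 with an SE of 0.0873 (adjusted p = 0.00421, edgeR). Ctss, Laptm5, Ctsz and Ctsd, and also the lysozyme gene Lyz2 (log2 fold change 1.11) and the progranulin gene Grn (0.51), passed the test whichever animal was left out.

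Receptors that bind antibody and microbial products differed in the same direction. Of 13 Fc receptor and adaptor genes 5 were higher and 0 lower, with all 13 log2 fold changes above 0, as were those of 49.1% of all tested genes. Fcer1g, the shared signalling chain of Fc receptors, had 7.55, 8.15 and 7.75 CPM against 3.71 and 4.42 CPM, a log2 fold change of 0.94 with an SE of 0.152 (adjusted p = 0.00478, edgeR) with an adjusted p of 0.05 without G34W replicate 1. Fcgr3, a low-affinity IgG receptor gene, had 19.7, 17.9 and 19.2 CPM against 12.8 and 9.26 CPM. This was a log2 fold change of 0.79 with an SE of 0.143 (adjusted p = 0.0103, edgeR), and its adjusted p was 0.0734 without G34W replicate 2. Inpp5d, the phosphatase SHIP1 that restrains such receptors, was at 19.4, 21.4 and 21 CPM against 15.1 and 12.5 CPM, with 0.58 with an SE of 0.0998 (adjusted p = 0.00702, edgeR) and an adjusted p of 0.0555 without G34W replicate 2. Both activating and restraining members were therefore among the 5. The list had 3, 3 and 4 without G34R replicates 1, 2 and 3 in turn, and 3 and 1 without G34W replicates 1 and 2. Of 15 Toll-like receptor and adaptor genes 5 were higher and 0 lower: Tlr1, Tlr2, Cd14, Unc93b1 and Ly86. Ly86, which encodes the MD-1 partner of the receptor homologue CD180, had 18.5, 14.4 and 15.5 CPM in G34R and 9.23 and 7.43 CPM in G34W and a log2 fold change of 0.96 with an SE of 0.17 (adjusted p = 0.00896, edgeR), with an adjusted p of 0.0572 without G34W replicate 2. This list had 1, 1 and 3 without G34R replicates 1, 2 and 3 in turn, and 2 and 0 without G34W replicates 1 and 2.

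Of 20 tested complement genes 7 were higher and 0 lower, with a median of 0.42. The C1q chains start the classical pathway and tag synapses and debris. C1qc (chromosome 4, 136889804 to 136893065) had 73.1, 61.3 and 58.6 CPM in G34R and 37 and 28.4 CPM in G34W, with WT at 24.6 to 30.7 (median 26.6) CPM. edgeR estimated a log2 fold change of 0.98 with an SE of 0.133 (adjusted p = 0.00177, edgeR), and 1 of the G34W animals lay inside the WT range. The other chains stood at 103, 83.7 and 75.4 CPM against 52 and 38.3 CPM for C1qa and at 79.3, 64.9 and 57.5 CPM against 40.2 and 31.8 CPM for C1qb. Their log2 fold changes were 0.95 (SE 0.16) and 0.91 (SE 0.193), close to that of C1qc. Without G34W replicate 2 the edgeR adjusted p was 0.056 for C1qa and 0.147 for C1qb, and C1qb passed only without G34R replicate 3. C3, the convergence point of the pathways, had 4.1, 2.81 and 4.46 CPM against 1.24 and 0.997 CPM, a log2 fold change of 1.78 with an SE of 0.396 (adjusted p = 0.03, edgeR) that passed only without G34R replicate 2 (0.0471) and reached 0.115 otherwise. Its receptor gene C3ar1 had a log2 fold change of 1.04, and its edgeR adjusted p of 0.0293 became 0.0504 to 0.117 with each animal left out. The list had 2, 3 and 4 without G34R replicates 1, 2 and 3 in turn, and 2 and 1 without G34W replicates 1 and 2, 2 in the block and 2 with limma-voom.

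Of 30 tested interferon-response genes, 29 had a log2 fold change above 0, 7 were higher and 0 lower, and the median was 0.99. The summed level of the list was 288.1, 224.9 and 232 CPM in G34R and 151.6 and 141.4 CPM in G34W, beside 127 to 138 CPM in WT and 142.3, 163.7 and 245.6 CPM in G34V. The G34R and G34W sums did not overlap, and G34V replicate 3 lay among the G34R animals. Against WT, 24 members were higher in G34R, as were 2.95% of all tested genes, and 0 in G34W. The median log2 fold changes against WT were 1.41 in G34R and 0.25 in G34W. The list had 1, 2 and 4 without G34R replicates 1, 2 and 3 in turn, and 1 and 2 without G34W replicates 1 and 2, and 0 with limma-voom or in the block, where its median was 1.13. Irf9, the subunit that gives the interferon-activated STAT complex its DNA target, had 13.2, 12.6 and 11.2 CPM in G34R and 6.43 and 5.46 CPM in G34W. G34R differed from G34W by a log2 fold change of 1.06 with an SE of 0.198 (adjusted p = 0.0124, edgeR), and its adjusted p was 0.068 without G34W replicate 2.

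The complex that IRF9 completes binds the interferon-stimulated response element, so the promoters of the members were searched on both strands for 2 copies of GAAA with any 2 bases between them. RefSeq promoter windows of GRCm38.p6, each 250 bases before to 50 after a gene's start, were found for 20 of the 30 members, and 12 of these held the motif. It was present in 3.44% of all 32851 windows of the same length, and in 3.99% of 27025 genes counted once each. Among the 12 members with the motif, Ifit1, Ifit3, Isg15, Stat2, Oas1a, Rsad2, Bst2, Ifih1 and Gbp3 were not called. Of the 7 called members 3 held it: Ifit3b, Trim30a and Ddx58. That is a smaller share than among the members with a window that were not called. A window of each is shown because these are the called genes in which the motif was found, and Trim30a has a second window with 1 match that is not printed. Each lies 5′ to 3′ along the gene, at chr19:34607707-34608006 on the plus strand for Ifit3b, chr7:104465144-104465443 on the minus strand for Trim30a and chr4:40239776-40240075 on the minus strand for Ddx58. Capitals mark the matches, which in these windows read as the reverse complement, 2 copies of TTTC with 2 bases between them.
Ifit3b: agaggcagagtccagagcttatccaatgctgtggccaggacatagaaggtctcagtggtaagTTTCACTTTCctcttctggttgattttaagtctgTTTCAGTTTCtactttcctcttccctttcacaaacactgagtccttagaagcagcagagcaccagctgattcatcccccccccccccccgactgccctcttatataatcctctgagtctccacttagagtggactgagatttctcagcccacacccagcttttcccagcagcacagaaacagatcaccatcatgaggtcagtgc
Trim30a: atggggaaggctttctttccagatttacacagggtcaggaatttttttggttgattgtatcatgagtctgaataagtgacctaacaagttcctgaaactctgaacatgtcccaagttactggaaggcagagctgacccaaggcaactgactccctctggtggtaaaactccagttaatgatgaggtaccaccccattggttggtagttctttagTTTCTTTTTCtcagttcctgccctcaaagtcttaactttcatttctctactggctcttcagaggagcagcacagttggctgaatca
Ddx58: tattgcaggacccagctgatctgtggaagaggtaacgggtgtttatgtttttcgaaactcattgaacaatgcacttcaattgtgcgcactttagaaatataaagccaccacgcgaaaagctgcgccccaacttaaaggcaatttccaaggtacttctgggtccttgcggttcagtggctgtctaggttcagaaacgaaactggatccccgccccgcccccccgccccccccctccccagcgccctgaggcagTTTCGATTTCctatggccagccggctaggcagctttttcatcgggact

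Ifit3b, which has 2 matches and encodes a member of the antiviral IFIT family, was at 17.3, 11.9 and 14.9 CPM in G34R and 6.18 and 5.58 CPM in G34W, the latter near the WT range of 4.81 to 5.78 (median 5.38) CPM. Between the genotypes the log2 change was 1.33 with an SE of 0.272 (adjusted p = 0.0262, edgeR). Its reads may be shared with its near copy Ifit3. Ddx58, the gene of the RNA sensor RIG-I, had 8.31, 6.32 and 6.51 CPM against 3.2 and 4.01 CPM, and both G34W animals lay inside the WT range of 2.98 to 4.82 (median 4.18) CPM. Its log2 fold change was 0.96 with an SE of 0.21 (adjusted p = 0.0277, edgeR). Trim30a, a tripartite motif gene of immune cells, had 5.55, 4.29 and 4.84 CPM against 2 and 2.21 CPM and 1.22 with an SE of 0.268 (adjusted p = 0.0293, edgeR). Ifit2, in which no match was found in the window, had 15, 14.2 and 13.8 CPM against 7.85 and 9.83 CPM. The G34W animals lay below the WT range of 11 to 12.8 (median 12.4) CPM and the G34R animals above it, and the log2 fold change was 0.69 with an SE of 0.136 (adjusted p = 0.0172, edgeR). With each animal left out, the edgeR adjusted p was 0.0378 to 0.104 for Ifit3b, 0.0407 to 0.131 for Ddx58, 0.0525 to 0.114 for Trim30a and 0.0152 to 0.106 for Ifit2. Ifit3b passed only without G34R replicate 2, Ddx58 and Ifit2 only without G34R replicate 3 or G34W replicate 2, and Trim30a in no omission. In the antigen presentation list 1 of 18 members was higher and 1 lower: B2m, the light chain of MHC class I (0.62), and the peptide editor gene Tapbpl (-0.66), with edgeR adjusted p of 0.0349 to 0.136 and 0.028 to 0.0974 over the 5 omissions. B2m passed only without G34W replicate 1 and Tapbpl only without G34R replicate 1.

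**Figure D4:**
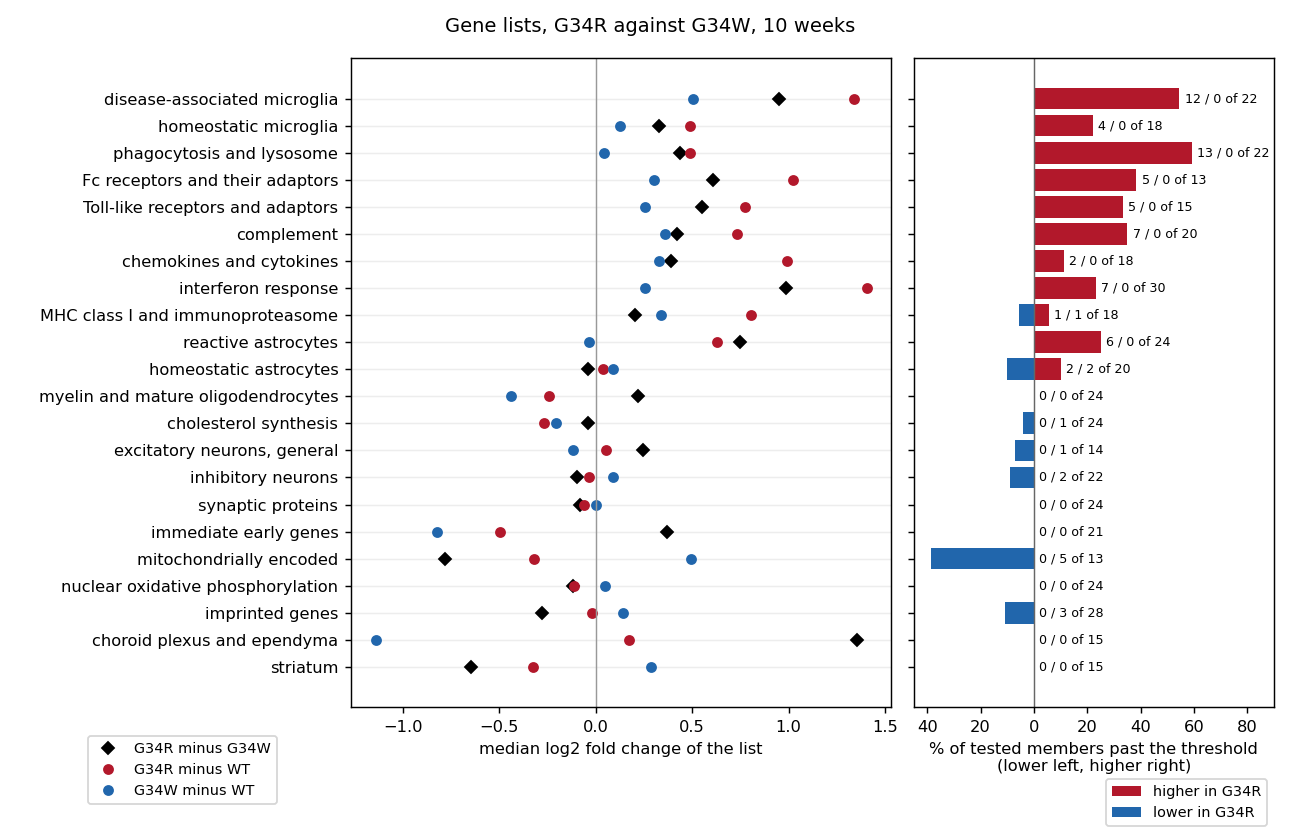
Left, the median log2 fold change of each gene list for G34R minus G34W (diamonds), G34R minus WT and G34W minus WT (circles). Right, the percentage of tested members called higher (red) or lower (blue) in G34R than in G34W, with the counts higher, lower and tested. By the median of G34R minus G34W, choroid plexus and ependyma genes lie furthest right (1.35). Reactive astrocyte and most immune lists also lie to the right, while MHC class I (0.20) lies near myelin (0.22). The mitochondrially encoded (-0.78) and striatal (-0.65) genes lie furthest left.

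The genes that were lower in G34R included several that lay below WT in both substitutions. Minar2 (chromosome 18, 59062248 to 59076962), a membrane protein gene, had 3.24, 3.35 and 2.96 CPM in G34R, 4.96, 4.27 and 4.95 CPM in G34V, 7.12 and 6.29 CPM in G34W and 14.8 to 16.6 (median 15.6) CPM in WT. No genotype overlapped another, and the log2 fold change of G34R over G34W was -1.07 with an SE of 0.112 (adjusted p = 0.00014, edgeR). Cdkl1, a cyclin-dependent kinase-like gene, was at 4.66, 4.62 and 3.45 CPM against 8.8 and 9.69 CPM, with WT at 10.9 to 13.9 (median 12.1) CPM, and differed by -1.12 with an SE of 0.154 (adjusted p = 0.00162, edgeR). Pnma3, a paraneoplastic antigen family gene on the X chromosome, had 3.87, 3.02 and 3.85 CPM against 6.69 and 7.96 CPM, with WT at 11.9 to 13.2 (median 12.6) CPM, and differed by -1.03 with an SE of 0.161 (adjusted p = 0.00411, edgeR). All 3 calls held whichever animal was left out, and none stood in the block. Hrasls, a phospholipid-modifying enzyme gene, had 4.56, 2.73 and 5.43 CPM against 8.03 and 7.12 CPM and WT at 16.8 to 20.8 (median 17.6) CPM. The change of -0.82 with an SE of 0.196 (adjusted p = 0.0425, edgeR) passed only without G34R replicate 3 (0.0244) and reached 0.158 without G34W replicate 1. Minar2, Pnma3 and Hrasls were named after their values were seen.

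For other genes both G34W animals lay within or above the WT range, apart from Zfp648. Lgi2 (chromosome 5, 52533517 to 52566462), a secreted leucine-rich repeat protein gene of neurons, had 19.3, 20.2 and 22.2 CPM in G34R and 32.1 and 31 CPM in G34W. WT animals were at 25.4 to 30.8 (median 27.7) CPM, with both G34W animals above them, and the log2 fold change was -0.62 with an SE of 0.091 (adjusted p = 0.00278, edgeR). It was the 1 gene lower in G34R that kept its call in all 21 alternatives. Trim71, an RNA-binding ubiquitin ligase gene of early development, had 0.642, 0.648 and 0.94 CPM against 1.96 and 2.47 CPM, and its log2 fold change was -1.59 with an SE of 0.273 (adjusted p = 0.00702, edgeR). The homeobox gene Pbx3 had 6.28, 5.91 and 6.18 CPM against 16.6 and 14 CPM, the latter above the WT range of 5.72 to 11 (median 9.21) CPM, and -1.32 with an SE of 0.209 (adjusted p = 0.00478, edgeR). Calls of Trim71 and Pbx3 stood in all 5 omissions. Zfp648, a zinc finger gene, was at 0.154, 0.162 and 0.235 CPM in G34R and 0.727 and 1.45 CPM in G34W, with WT at 0.974 to 1.64 (median 1.07) CPM, so that 1 G34W animal lay below WT and 1 within it. Its log2 fold change of -2.60 with an SE of 0.491 (adjusted p = 0.0131, edgeR) had an adjusted p of 0.0595 and 0.0508 without G34R replicates 1 and 2 and 0.0975 without G34W replicate 2. Etnppl, an astrocyte enzyme gene that breaks down phosphoethanolamine, had 6.76, 8.13 and 4.84 CPM in G34R and 34.9 and 11.4 CPM in G34W, where the 2 G34W animals lay far from each other. That log2 fold change of -1.81 with an SE of 0.404 (adjusted p = 0.0496, edgeR) passed only without G34W replicate 2 (0.00354) and reached 0.256 without G34W replicate 1.

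**Figure D5:**
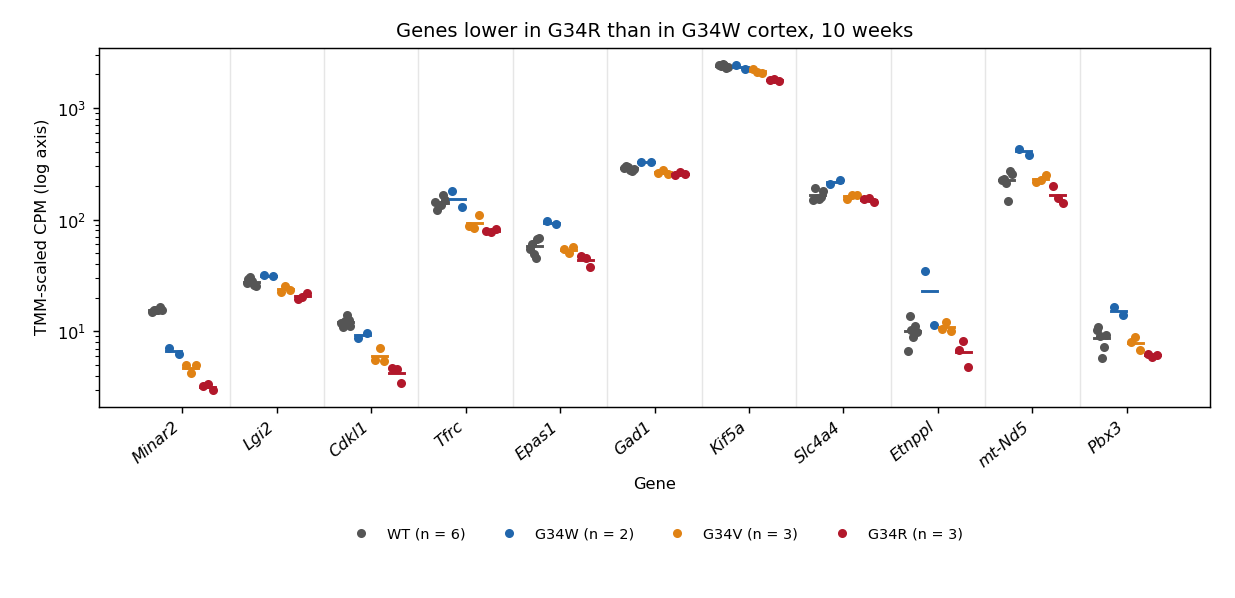
TMM-scaled CPM on a log axis for 11 genes called lower in G34R. Points are animals and bars are group means. Both G34W animals lie above the 3 G34R animals for each gene, and the 2 G34W animals lie far apart for Etnppl.

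A further 4 genes lower in G34R were named after their values were seen. Tfrc (chromosome 16, 32608920 to 32632794), the transferrin receptor gene, measured 79.9, 76.8 and 82.4 CPM in G34R and 179 and 129.6 CPM in G34W. WT animals were at 123 to 167 (median 139.7) CPM, so G34R lay below WT and G34W around it. The log2 fold change was -0.95 with an SE of 0.139 (adjusted p = 0.00411, edgeR). Epas1 (chromosome 17, 86753700 to 86833410), which encodes the hypoxia-inducible factor HIF-2alpha, had 47.5, 45.6 and 37.8 CPM against 97.6 and 90.6 CPM. Both G34W animals lay above the WT range of 45.3 to 69.1 (median 57.3) CPM, and the log2 fold change of -1.11 with an SE of 0.157 (adjusted p = 0.004, edgeR) was -0.61 in the block (edgeR adjusted p = 0.184). Apln, the gene of the secreted peptide apelin, had 14.5, 16.9 and 13.3 CPM against 30.2 and 24.1 CPM and -0.86 with an SE of 0.135 (adjusted p = 0.00417, edgeR). The calls of Tfrc, Epas1 and Apln stood in all 5 omissions, with adjusted p of up to 0.0421, 0.0421 and 0.0445. Ireb2, the gene of an iron-regulatory protein that controls transferrin receptor mRNA, had 48.6, 47.1 and 43.9 CPM against 65.7 and 68.4 CPM. The change of -0.53 with an SE of 0.107 (adjusted p = 0.0197, edgeR) passed only without G34R replicate 1 (0.0419), with up to 0.0691 otherwise.

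Neuronal lists contained few genes called by edgeR, all of them lower in G34R, while members short of the threshold went in both directions. Of 22 genes of inhibitory neurons 2 were lower, with a median of -0.10. At an unadjusted p under 0.05, 4 were higher and 7 lower, and DESeq2 called 2 higher and 3 lower. Gad1, the enzyme gene that makes GABA, had 251, 265 and 256 CPM in G34R and 327 and 329 CPM in G34W, beside 274 to 306 (median 289) CPM in WT. On the log2 scale G34R minus G34W was -0.35 with an SE of 0.0635 (adjusted p = 0.0103, edgeR), and each group lay outside the WT range, G34R below it and G34W above it. Reln, the gene of the secreted guidance protein reelin, had 119, 108 and 120 CPM against 172 and 213 CPM. Its log2 fold change of -0.74 with an SE of 0.168 (adjusted p = 0.0445, edgeR) was -0.25 in the block and ended as a call with any animal left out (edgeR adjusted p 0.0764 to 0.177). Of 14 general excitatory genes 1 was lower, the calcium-dependent kinase gene Camk2a, at 980.4, 832 and 833 CPM against 1122 and 1338 CPM (-0.48 with an SE of 0.101 (adjusted p = 0.0254, edgeR)). It passed only without G34R replicate 1 (0.0203) or G34W replicate 1 (0.0187), and its log2 fold change in the block was -0.25. The median of this list was 0.24, opposite in sign to its called member, and at an unadjusted p under 0.05 7 members were higher and 1 lower. Of 15 neurofilament and axon genes 1 was lower, the axonal motor gene Kif5a, with 1798, 1807 and 1731 CPM against 2424 and 2250 CPM and WT at 2286 to 2473 (median 2412) CPM. Between the genotypes the log2 change was -0.39 with an SE of 0.0629 (adjusted p = 0.00444, edgeR), and its call stood in all 5 omissions. Fitted with only the 5 animals compared, Kif5a and Gad1 did not pass, with edgeR adjusted p of 0.0592 and 0.0668. Of 20 deep-layer genes 1 was lower, the forkhead gene Foxp2 (-0.70, edgeR adjusted p 0.0511 to 0.143 over the omissions). None of 18 upper-layer, 24 synaptic or 21 immediate early genes passed edgeR's test, with 4, 7 and 1 at an unadjusted p under 0.05 and 1 of each list called by DESeq2. The immediate early genes had a median of 0.37, which was -0.29 in the block.

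All 13 protein-coding genes of the mitochondrial genome had log2 fold changes below 0, as had 50.9% of all tested genes, with a median of -0.78, and 5 were lower. The summed level was 9771, 9350 and 8408 CPM in G34R, 15910 and 13020 CPM in G34W and 9237 to 13560 CPM in WT. The G34R animals lay in the lower part of the WT range or below it, and G34W replicate 1 above it. mt-Nd5, a subunit gene of respiratory complex I, had 199, 156 and 142 CPM in G34R and 434 and 384 CPM in G34W. The fitted log2 difference was -1.30 with an SE of 0.208 (adjusted p = 0.0109, edgeR), with an adjusted p of 0.069 without G34W replicate 1. mt-Nd6, which overlaps mt-Nd5 on the opposite strand, had 42.4, 32.2 and 31.9 CPM against 104 and 75.1 CPM and -1.33 with an SE of 0.221 (adjusted p = 0.0147, edgeR). The strand setting of the counting is not given in the sources used here, so reads of mt-Nd5 and mt-Nd6 may not be told apart where they overlap. mt-Co1, a subunit gene of complex IV, had 6492, 6343 and 5734 CPM against 10410 and 8469 CPM, a log2 fold change of -0.61 with an SE of 0.124 (adjusted p = 0.0242, edgeR). Both mt-Nd6 and mt-Co1 passed only without G34R replicate 1 or G34W replicate 2, and reached an adjusted p of 0.0881 and 0.168 without G34W replicate 1. The list had 6, 1 and 2 without G34R replicates 1, 2 and 3 in turn, and 0 and 5 without G34W replicates 1 and 2. In the block edgeR called 0 and the median was -0.19. Of 24 nuclear genes of oxidative phosphorylation edgeR and DESeq2 called none, 6 had an unadjusted p under 0.05, and the median was -0.12.

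Of 28 imprinted genes, which are expressed from 1 parental copy, 3 were lower and 0 higher in G34R. Ndn, the paternally expressed necdin gene of neurons, had 59.3, 49 and 59.2 CPM in G34R and 106 and 80.2 CPM in G34W, with WT at 83.9 to 116 (median 108) CPM. G34R lay below WT and 1 G34W animal inside its range. The log2 fold change was -0.74 with an SE of 0.131 (adjusted p = 0.0109, edgeR), with an adjusted p of 0.0894 without G34W replicate 1. Rian, a maternally expressed non-coding RNA, had 255, 237 and 244 CPM against 342 and 308 CPM, and here both G34W animals lay above the WT range of 256 to 281 (median 262) CPM. This was a log2 fold change of -0.41 with an SE of 0.0653 (adjusted p = 0.00473, edgeR), a call that stood in all 5 omissions. Fitted with only the 5 animals compared, Rian did not pass (edgeR adjusted p = 0.0539). Ube3a, a ubiquitin ligase gene, had a log2 fold change of -0.27 that passed only without G34W replicate 1 (edgeR adjusted p 0.0317 to 0.164).

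Markers of tissue next to the cortex also differed between the 2 groups without passing edgeR's adjusted threshold. All 15 choroid plexus and ependyma genes had log2 fold changes above 0, with a median of 1.35. edgeR called 0, with 8 at an unadjusted p under 0.05, and DESeq2 called 4. Over its 4 defining markers the summed level was 695, 599 and 412 CPM in G34R and 12.7 and 188 CPM in G34W, beside 142 to 880 CPM in WT. Ttr, the transthyretin gene of the choroid plexus, was at 659, 563 and 385 CPM in G34R and 6.76 and 163 CPM in G34W, so G34W replicate 1 was the lowest of all. The median was 0.75 without G34W replicate 1 and 2.70 without G34W replicate 2. All 15 striatal genes lay below 0, with a median of -0.65. edgeR called 0, with 8 at an unadjusted p under 0.05, and DESeq2 called 3. Over 3 striatal markers the sums were 59.1, 88.5 and 61.4 CPM in G34R, 120 and 105 CPM in G34W and 49.2 to 120 CPM in WT. The part of these markers, and of the small structured RNAs, in the genes lower or higher in G34R was not tested. Microglial marker genes summed to 466, 435 and 429 CPM in G34R and 326 and 303 CPM in G34W, and border macrophage markers to 9.56 to 11.5 CPM and 8.21 and 8.6 CPM.

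Myelin genes had no member called by edgeR, with 8 at an unadjusted p under 0.05 and 2 called by DESeq2. Their summed level over 24 genes was 5010, 5518 and 4279 CPM in G34R and 5339 and 3772 CPM in G34W, with overlapping ranges, and WT was at 5329 to 7011 CPM. The median log2 fold change was 0.22, beside -0.24 for G34R and -0.44 for G34W against WT. Cholesterol synthesis genes, of which 12 of 24 were lower in G34R (2.66% of all tested genes) and 2 in G34W (1.05%) against WT, had a median of -0.04 between the 2 substitutions. The called member was Stard4, a sterol carrier gene (log2 fold change -0.36), with an edgeR adjusted p of 0.049 that became 0.0806 to 0.159 with each animal left out. None of 14 oligodendrocyte precursor, 26 collagen and matrix, 20 endoplasmic reticulum stress or 18 endothelial genes passed edgeR's test. At an unadjusted p under 0.05 there were 4, 11, 4 and 4, beside 3871 of all 21274 tested genes. DESeq2 called 3, 2, 2 and 2, beside 1093 of 30042.

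The series holds G34R and WT cortex at postnatal day 7 (4 animals each), before the 10-week stage, and no G34W animals of that age were analysed here. In that separate fit 63 of 20451 genes (0.308%) were called. Gfap had a log2 fold change of -0.13 with an SE of 0.153 (adjusted p = 0.921, edgeR) and Serpina3n of 0.73 with an SE of 0.203 (adjusted p = 0.288, edgeR) for G34R over WT at that age. Of the microglial genes above, Cx3cr1 had 0.45 with an SE of 0.0632 (adjusted p = 0.0253, edgeR) and Laptm5 0.56 with an SE of 0.0872 (adjusted p = 0.0329, edgeR), whereas Ctss had 0.72 with an SE of 0.175 (adjusted p = 0.241, edgeR) and C1qc 0.34 with an SE of 0.127 (adjusted p = 0.553, edgeR). Minar2 was lower in G34R at day 7, with a log2 fold change of -0.78 with an SE of 0.0857 (adjusted p = 0.00808, edgeR). The ages were not compared by a test here.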

How the data were processed

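Counts per gene, deposited by the authors as whole numbers without normalisation, covered 23 libraries of mouse cortex total RNA. Genome build mm10 and the tools featureCounts 1.4.4, STAR 2.3.0e, Trimmomatic 0.32 and bedtools 2.27.1 come from the submitters' processing notes. No source used here gives the annotation release or the strand setting. Of 39017 genes, 37693 matched an identifier of GENCODE M21 (GRCm38), which gave names and positions, and 1324 did not. Groups followed the genotype and age labels, and replicates were animals with their own numbers. The 2 libraries of WT replicate 3 were summed.

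The 14 animals at 10 weeks were fitted together with edgeR 4.0.16 in R 4.3.3 (robust quasi-likelihood, TMM scaling, filterByExpr, Benjamini-Hochberg threshold 0.05, a common biological coefficient of variation of 0.137 on 10 residual degrees of freedom). Xist, Tsix and Y-linked genes were removed (175). Log2 fold changes are G34R minus G34W, and an SE is the log2 fold change divided by the square root of F. The CPM are TMM-scaled. The fit at day 7 had sex as a covariate. Scripts were tested on simulated data. Some items are not reported here.

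The members and the 45 gene lists (844 genes) were chosen with earlier results of these data known. Named genes were H3f3a, up to 12 per direction with the largest change (called, at least 1 CPM in a group, ranges apart, protein-coding) and up to 4 called members per list of smallest adjusted p, of which only some are described. List members Tyrobp, P2ry12, Tmem119, Ttr, Dnmt3a and Ptx3, and the genes Minar2, Lgi2, Epas1, Tfrc, Apln, Ireb2, Pnma3, Hrasls, Clec7a, Trem2, Lyz2, Grn, C4b, C1qb, Clu, Slc14a1, Chil1, Trim30a, Tlr2, mt-Co1, Mpeg1, Tmem176b, Gfm2 and Cd63-ps, and Lrrk2, Nfia, Meis2 and Gm3835 in the closing section, were named after their values were seen.

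Alternatives were RLE and upper-quartile scaling, other count filters, DESeq2 1.42.0, limma-voom (limma 3.58.1), other sets of animals, a sex covariate, blocks for runs of animal numbers or library sets of mitochondrial share, gene classes left out, a stricter threshold and each animal left out. Restriction to protein-coding genes, also with 1 G34W animal, was added after seeing the data.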

Additional observations from a re-analysis of the deposited data

Results flagged for a closer look

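Among 108 named genes checked in the 6 WT animals at 10 weeks, 10 had 1 animal far from the other 5, where chance alone gives about 1 in 20. The groups of 2 and 3 animals are too small for this check. High single values were seen for Ccl3 in WT replicate 5 (0.2171 CPM), Ky in replicate 2 (3.564 CPM), Rab32 in replicate 1 (1.691 CPM), Tlr2 in replicate 6 (1.431 CPM) and Trim71 in replicate 2 (2.523 CPM). Low single values were seen for Chil1 in replicate 2 (5.622 CPM), Clu in replicate 3 (520.7 CPM), Ireb2 in replicate 4 (40.5 CPM), Irf1 in replicate 6 (4.128 CPM) and Ms4a6d in replicate 2 (0.5312 CPM). These animals entered the estimate of the spread but not the G34R and G34W levels.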

How the results depend on the processing

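RLE and upper-quartile scaling, other count filters, kept sex genes, mitochondrial and rRNA genes left out, protein-coding genes only and the 2 libraries of WT replicate 3 kept apart each gave counts within 1.5 times of the 400 calls, 201 higher and 199 lower. Counts that moved further were 1093 (520 and 573) with DESeq2, 90 (36 and 54) with limma-voom, 686 (304 and 382) with all 22 animals in the fit, 72 (39 and 33) at an adjusted p under 0.01, 19 (16 and 3) with runs of animal numbers as a block, and 35 (22 and 13) with library sets of mitochondrial share as a block. With only the 5 animals compared 125 were higher, with the sex label as a covariate 323 were lower, and with protein-coding genes and only G34W replicate 2 taken from that group 113 were higher, the last chosen after seeing the data. Leaving out each animal gave 118 to 508 calls, 60 to 186 higher and 54 to 322 lower. The 508 calls without G34W replicate 2 shared 167 genes with the 400, and the sex covariate, which sets that animal, the only female of the 14 by its label and by Xist, apart, also gave 508. Of the 108 named genes only H3f3a changed direction, with a log2 fold change of -0.123 and -0.137 in the 2 blocks, -0.0814 with the sex covariate, -0.00049 without G34R replicate 2 and -0.0804 without G34W replicate 2, against 0.166 without G34W replicate 1, and it passed the test in no alternative. No paired analysis was possible because the labels give G34R and G34W animals no shared replicate number. The cause of these changes was not tested.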

Other observations

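Genes of DNA replication and division had few called members. Of 23 cell cycle genes 20 had a log2 fold change above 0, and 2 passed edgeR's test, Cdk1 and Mcm6, both higher, while limma-voom and both blocks called none of the 23 and 6 had an unadjusted p under 0.05 in the edgeR fit. Cdk1, the mitotic kinase gene, was at 0.604, 0.864 and 1.03 CPM in G34R and 0.0727 and 0.142 CPM in G34W, beside 0.257 to 0.712 (median 0.416) CPM in WT. The log2 change of 2.85 with an SE of 0.61 (adjusted p = 0.0262, edgeR) passed, among the 5 omissions, only without G34R replicate 1 (0.0357) and reached 0.112 without G34W replicate 1. Mcm6, a replication helicase subunit gene, had 9.97, 9.53 and 10.9 CPM against 5.71 and 7.62 CPM, passed among the omissions only without G34W replicate 2 (0.021) and reached 0.237 without G34W replicate 1. Pf4, a chemokine gene of border macrophages and platelets, was at 0.719, 0.702 and 0.846 CPM against 0.145 and 0.142 CPM, and its edgeR adjusted p was 0.086 to 0.137 with each animal left out.

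Several transcripts of long genes were lower in G34R. Lrrk2, the leucine-rich repeat kinase gene, had 71, 75.7 and 69.2 CPM in G34R, 94.5 and 107 CPM in G34W and 84.6 to 97.7 (median 94.7) CPM in WT, a log2 fold change of -0.48 with an SE of 0.0788 (adjusted p = 0.00478, edgeR). The transcription factor gene Nfia had 30.6, 25.9 and 24.2 CPM against 38.4 and 46.3 CPM, a log2 fold change of -0.66 with an SE of 0.108 (adjusted p = 0.00563, edgeR). Both calls stood whichever animal was left out. Meis2, a homeobox gene, had 67.3, 81.3 and 74.2 CPM against 113 and 110 CPM, and its edgeR adjusted p of 0.0335 became 0.0526 to 0.143 with each animal left out. Over protein-coding genes the median span was 16.5 kb for the 189 higher, 60.1 kb for the 165 lower and 24.5 kb for all 15679. Of 3894 genes under 10 kb 72 were higher and 24 lower, and of 543 genes over 300 kb 2 were higher and 24 lower, with median log2 fold changes of 0.0431 and -0.124. The median log2 level relative to the WT mean, for genes over 100 kb minus that for genes under 10 kb, was -0.0714, -0.0606 and -0.0487 in G34R, and -0.0554 and 0.152 in G34W replicates 1 and 2. In WT it ran from -0.0554 to 0.0826. Only G34W replicate 2 lay above that range, and G34R replicates 1 and 2 and G34V replicate 3 (-0.0664) lay below it.

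Of 862 small structured RNA genes 2 were higher and 11 lower, with a median log2 fold change of -0.4633, beside 0.0118 for protein-coding genes. These RNAs took 33.43% of counts in G34W replicate 1 but 17.37% in G34W replicate 2, below the 18.76% to 23.05% of the 3 G34R animals. The median was -0.285 without G34W replicate 1, with 1 gene higher and 2 lower, and -0.584 without G34W replicate 2, with 2 higher and 33 lower. Without G34R replicates 1, 2 and 3 in turn 3, 1 and 2 genes were lower and edgeR called 0 higher. The pseudogene Gm3835 had no count in G34R replicates 1 and 2 or in any WT animal, and stood at 0.047 CPM in G34R replicate 3 and 1.45 and 1.43 CPM in the 2 G34W animals (edgeR adjusted p = 0.00616). It was at most 0.0215 CPM in G34V.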
